A study of Mus musculus with 12 samples.

Results

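The collagen genes were taken as every gene symbol of the form Col, a number, the letter a and a number, each represented by its transcript with the most reads over the 12 libraries. There were 44 of them among 24478 gene symbols: 11 of fibrillar collagens, 8 of basement membrane collagens and 25 of other classes. RNA of mouse thymic tissue was sequenced in 4 groups of 3 libraries. Control tissue was labelled as T cells expressing endogenous MYC only. T58A lymphomas and S62A lymphomas were thymic lymphomas labelled as T cells expressing only the ectopic MYC mutant T58A or S62A. The S62A splenomegaly group was thymic tissue titled for an enlarged spleen and labelled as T and B cells with ectopic S62A and endogenous MYC. Tumours and splenomegaly arose spontaneously. The sources used here do not give the promoter or Cre behind the ectopic MYC, nor strain, age or sex. All libraries were whole-tissue RNA, so fewer cells of a type and less RNA per cell cannot be told apart. Separate animals are not stated for libraries of 1 group, and the p-values below measure the spread between libraries, which may be technical.

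Collagen chains wind around each other into helical trimers that are secreted into the extracellular matrix. Fibrillar collagens such as types I, III and V form the fibrils of connective tissue, and type IV collagen forms the network of basement membranes under epithelium and around vessels. Other classes sit on fibrils, form microfilaments or span cell membranes; in lymphoid organs collagen is made mainly by fibroblasts, vessel-associated cells and epithelium, while lymphocytes make little.

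Libraries held 9577373 to 22437969 reads on genes, and collagen genes took 0.0539% to 0.0617% of the reads of controls, 0.0816% to 0.237% of T58A lymphomas, 0.0340% to 0.167% of S62A lymphomas and 0.0754% to 0.117% of splenomegaly tissue. The biological coefficient of variation was 17.1% among controls, 40.9% among T58A lymphomas, 44.9% among S62A lymphomas and 28.0% among splenomegaly libraries. The 7 T cell markers summed to 3438 FPKM (reads scaled to transcript length and library size, as deposited) or more in each control and to 1178 FPKM or less in each other library. The 6 B cell markers summed to 1201 to 1592 FPKM in splenomegaly tissue and to at most 240.8 FPKM elsewhere. Controls 1 and 2 carried the title code G, control 3 and all T58A lymphomas H, and all S62A libraries I, and for S62A the code and the group cannot be told apart. Myc itself lay at 36.9 to 39.4 FPKM in controls, 60.6 to 70.5 FPKM in T58A lymphomas, 67.4 to 87.8 FPKM in S62A lymphomas and 35.3 to 42.2 FPKM in splenomegaly tissue.

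Summed over all 44 genes, collagen level was 137.4, 159.2 and 149.3 FPKM in the controls, 207.1, 280.2 and 595.4 FPKM in the T58A lymphomas, 83.5, 188.8 and 425.0 FPKM in the S62A lymphomas and 290.6, 295.5 and 191.4 FPKM in splenomegaly tissue. Controls stayed within a narrow range, every T58A and splenomegaly library lay above it, and the S62A lymphomas spread from below to far above it. The fibrillar class made up 40.5% to 44% of this sum in controls, 50.5% to 73.3% in T58A lymphomas, 55.4% to 73.3% in S62A lymphomas and 45.8% to 49.4% in splenomegaly tissue, without overlap between controls and the rest. The basement membrane share was 26.0% to 32.8% in controls, 11% to 23.6% in T58A lymphomas, 14.5% to 22.8% in S62A lymphomas and 25.6% to 29.95% in splenomegaly tissue, so both lymphoma groups were below controls and splenomegaly tissue overlapped them. Of the 44 genes, 15 reached a group mean of 5 FPKM, 26 reached 1 FPKM and 18 reached neither. These sums are descriptions and carry no test.

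**Figure D1:**
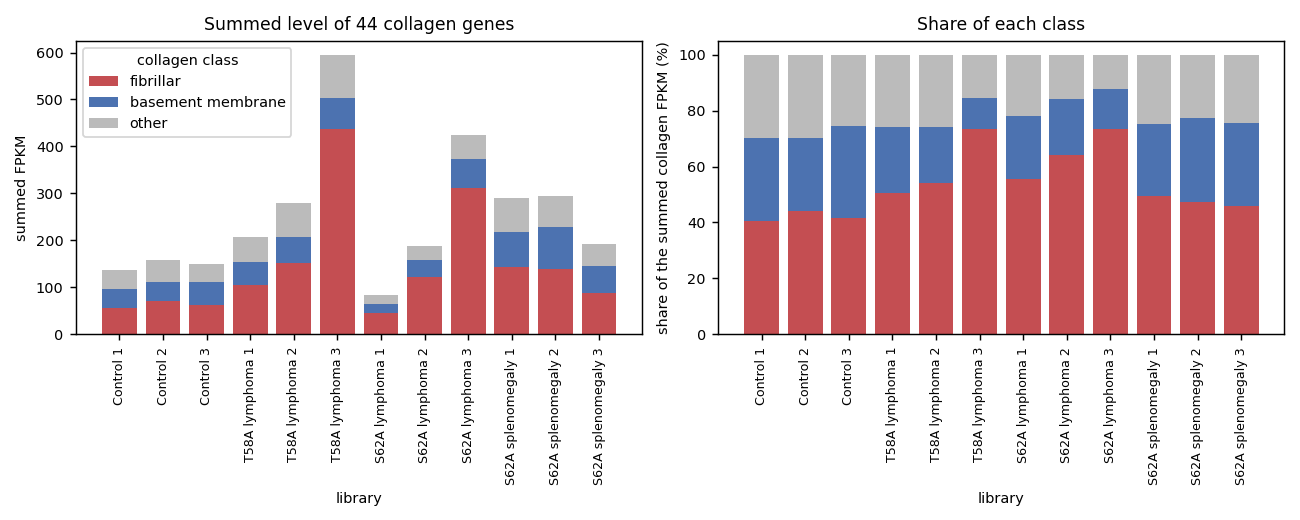
Left, summed FPKM of the 44 collagen genes in each of the 12 libraries, stacked by class; right, the share of each class in percent. Fibrillar genes take 40.5% to 44% in the controls and more in all other libraries, and T58A lymphoma 3 has the highest sum, 595.4 FPKM.

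Of the 44 genes, 40 had enough reads for the test, and Col11a1, Col13a1, Col22a1 and Col4a4 did not. A gene was called where the adjusted p of edgeR's quasi-likelihood test, fitted over 15606 genes, was under 0.05. In T58A lymphomas against controls, 10 collagen genes rose, against 18.8% of all genes tested, and 1 fell, against 17.4%. That is 25% and 2.5% of the 40, and their median log2 fold change was 0.92, beside 0.01 over all genes. Of the 10 that rose, 4 were fibrillar and 6 of other classes, and no basement membrane gene was called.

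In S62A lymphomas against controls, 6 collagen genes rose and 6 fell, 15.0% each, against 21.9% and 22.2% of all genes, with medians of 0.20 and 0.00. The 6 that rose were 3 fibrillar genes and 3 of other classes, and the 6 that fell were 1 fibrillar, 1 basement membrane and 4 other genes. In splenomegaly tissue against controls, 9 rose (22.5%) and 6 fell (15.0%), against 22.9% and 26.3% of all genes, with medians of 0.46 and -0.08. These 3 comparisons share the control libraries. The share that fell in T58A lymphomas was far below that of all genes, the share that rose there was somewhat above it, and in the other 2 comparisons both shares were near or below it. Col1a2, Col8a1 and Col16a1 rose in all 3 comparisons, Col27a1 fell in all 3, Col6a1 fell in S62A lymphomas and rose in splenomegaly tissue, and 18 of the 40 were called in none.

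**Figure D2:**
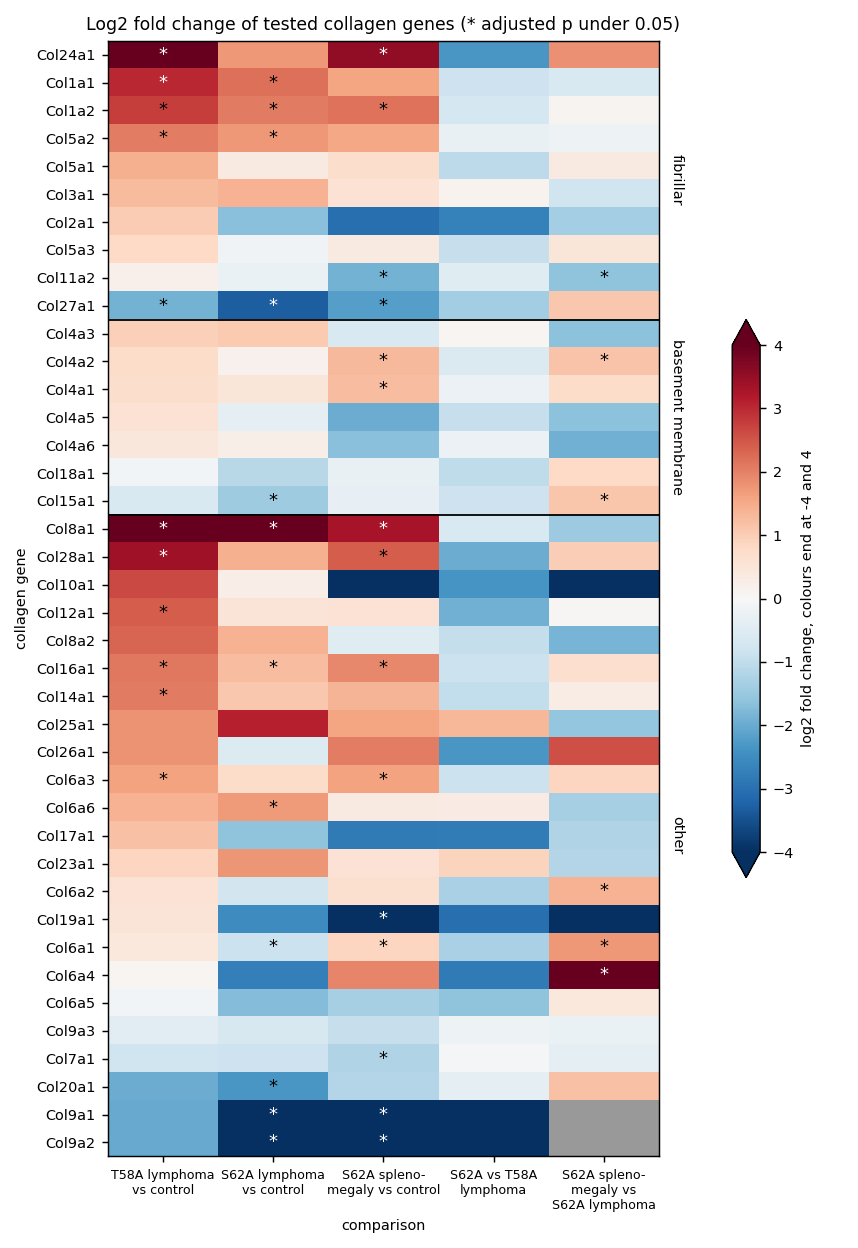
Fitted log2 fold change of the 40 tested collagen genes (vertical axis, by class) in 5 comparisons (horizontal axis); stars mark adjusted p under 0.05 and grey marks 2 genes without reads in both groups. Colours end at 4, and fitted values of genes without reads in a group have no fixed size. Against controls, Col1a1, Col1a2 and Col8a1 are red and Col27a1 is blue, and S62A against T58A lymphomas holds no star.

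Type I collagen, the main collagen of connective tissue fibrils, is encoded by Col1a1 and Col1a2. Col1a2 lay at 12.0, 14.5 and 12.6 FPKM in the controls, 34.4, 57.2 and 173.9 FPKM in the T58A lymphomas, 15.1, 39.9 and 101.1 FPKM in the S62A lymphomas and 62.1, 63.1 and 40.6 FPKM in splenomegaly tissue. All 9 other libraries were above all controls, with the third library of each lymphoma group highest. Its log2 fold change was 2.78 ± 0.67 (standard error) in T58A lymphomas (adjusted p = 0.00856), 2.09 ± 0.66 in S62A lymphomas (0.0240) and 2.19 ± 0.66 in splenomegaly tissue (0.0175). Col1a1 read 6.36, 7.66 and 6.86 FPKM in the controls, 17.6, 29.3 and 121.9 FPKM in the T58A lymphomas, 9.68, 21.7 and 58.6 FPKM in the S62A lymphomas and 22.5, 22.1 and 13.6 FPKM in splenomegaly tissue. Again no other library reached down to the control range. Col1a1 rose by 3.03 ± 0.74 on the log2 scale in T58A lymphomas (adjusted p = 0.00895) and by 2.2 ± 0.72 in S62A lymphomas (0.0282), and was 1.59 ± 0.71 higher without passing the test in splenomegaly tissue (0.0838). Without T58A lymphoma 3 the T58A values were 1.79 for Col1a1 and 1.84 for Col1a2, both still called. Without S62A lymphoma 3 the S62A values were 1.27 and 1.17, neither called, and neither was called in S62A lymphomas with any 1 control left out (adjusted p up to 0.143). Col1a2 in splenomegaly tissue was lost without control 1 or control 3 (up to 0.0590).

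Type III collagen (Col3a1), the collagen of reticular fibres in lymphoid organs, was the highest collagen gene in every control. Its level was 20.9, 29.2 and 24.6 FPKM in the controls, 30.9, 46.5 and 98.4 FPKM in the T58A lymphomas, 11.4, 43.8 and 127.3 FPKM in the S62A lymphomas and 44.6, 37.5 and 21.7 FPKM in splenomegaly tissue. The T58A lymphomas were above the controls, while the other groups overlapped them. The log2 fold changes of 1.25 ± 0.67 in T58A lymphomas (adjusted p = 0.166) and 1.38 ± 0.68 in S62A lymphomas (0.118) did not pass the test. Col5a2, a chain of type V collagen that takes part in starting fibrils, read 2.25, 2.67 and 2.52 FPKM in the controls, 4.69, 6.15 and 19.5 FPKM in the T58A lymphomas, 2.54, 5.63 and 15.0 FPKM in the S62A lymphomas and 7.43, 7.45 and 5.27 FPKM in splenomegaly tissue. S62A lymphoma 1 lay within the control range in FPKM and the other libraries lay above it. Col5a2 rose by 2.05 ± 0.62 in T58A lymphomas (adjusted p = 0.0248) and by 1.73 ± 0.62 in S62A lymphomas (0.0405), and its 1.54 ± 0.62 in splenomegaly tissue was not called (0.0571). Both calls were lost with any 1 control left out and without the third library of the lymphoma group, where the values were 1.16 (adjusted p = 0.129) and 0.81 (0.243). Col5a1, its partner chain, read 1.76 to 2.10 FPKM in controls, 2.32, 2.21 and 10.5 FPKM in T58A lymphomas, 1.11 to 4.16 FPKM in S62A lymphomas and 2.35 to 3.45 FPKM in splenomegaly tissue, and was called in no comparison.

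Col27a1, a fibrillar collagen gene known from cartilage, moved the other way. It stood at 5.45, 5.73 and 4.87 FPKM in the controls, 0.581, 2.93 and 0.770 FPKM in the T58A lymphomas, 0.148, 0.874 and 0.528 FPKM in the S62A lymphomas and 1.12, 1.06 and 1.06 FPKM in splenomegaly tissue. Every control was above every other library. The log2 fold change was -1.88 ± 0.63 in T58A lymphomas (adjusted p = 0.0360), -3.28 ± 0.67 in S62A lymphomas (0.00268) and -2.20 ± 0.64 in splenomegaly tissue (0.0144). The T58A call was lost with any 1 control left out and without T58A lymphoma 1 or 3 (adjusted p up to 0.107), the splenomegaly call without splenomegaly library 3 (0.0503), and the S62A call held with each library left out. Col11a2, a chain of the cartilage fibril collagen type XI, read 5.87, 6.47 and 6.26 FPKM in controls, 12.0, 4.47 and 4.44 FPKM in T58A lymphomas, 5.91, 5.52 and 2.93 FPKM in S62A lymphomas and 0.982, 2.16 and 1.62 FPKM in splenomegaly tissue. Splenomegaly tissue was below every other library. There Col11a2 was down by -1.88 ± 0.44 on the log2 scale (adjusted p = 0.00468). Col24a1, a fibrillar gene first known from bone, had 3 reads in all controls together, 51 in T58A lymphomas and 24 in splenomegaly tissue. The ratio to controls was 19.3 (95% counting interval 6.23 to 96.5) and 11.4 (3.46 to 59.0), with both calls lost with any 1 control left out. They were also lost without T58A lymphoma 3 and splenomegaly library 2, respectively (adjusted p up to 0.0992).

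T58A lymphoma 3 stood above the other 2 T58A libraries in 3 collagens of cartilage: Col10a1 of hypertrophic cartilage at 3.06 FPKM against 0.0389 and 0.255, and Col11a1 at 1.59 FPKM against 0 and 0.0104. Col2a1, the main cartilage collagen, stood at 1.28 FPKM there, against 0.0579 and 0.235 FPKM. Col10a1 and Col2a1 were not called in T58A lymphomas, and Col11a1 had too few reads for the test and was called higher there only by the fit without the filter on low counts. Other cartilage collagens were not highest in this library: Col11a2 was at 4.44 FPKM against 12.0 and 4.47, Col9a1 at 0.0471 FPKM against 0.0691 and 0.259, and Col9a2 at 0.224 FPKM against 0.0366 and 0.308. The 7 cartilage markers summed to 8.89 FPKM in this library, 2.82 and 7.09 FPKM in the other T58A lymphomas and 4.81 to 6.16 FPKM in controls, and their part in these levels was not tested.

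**Figure D3:**
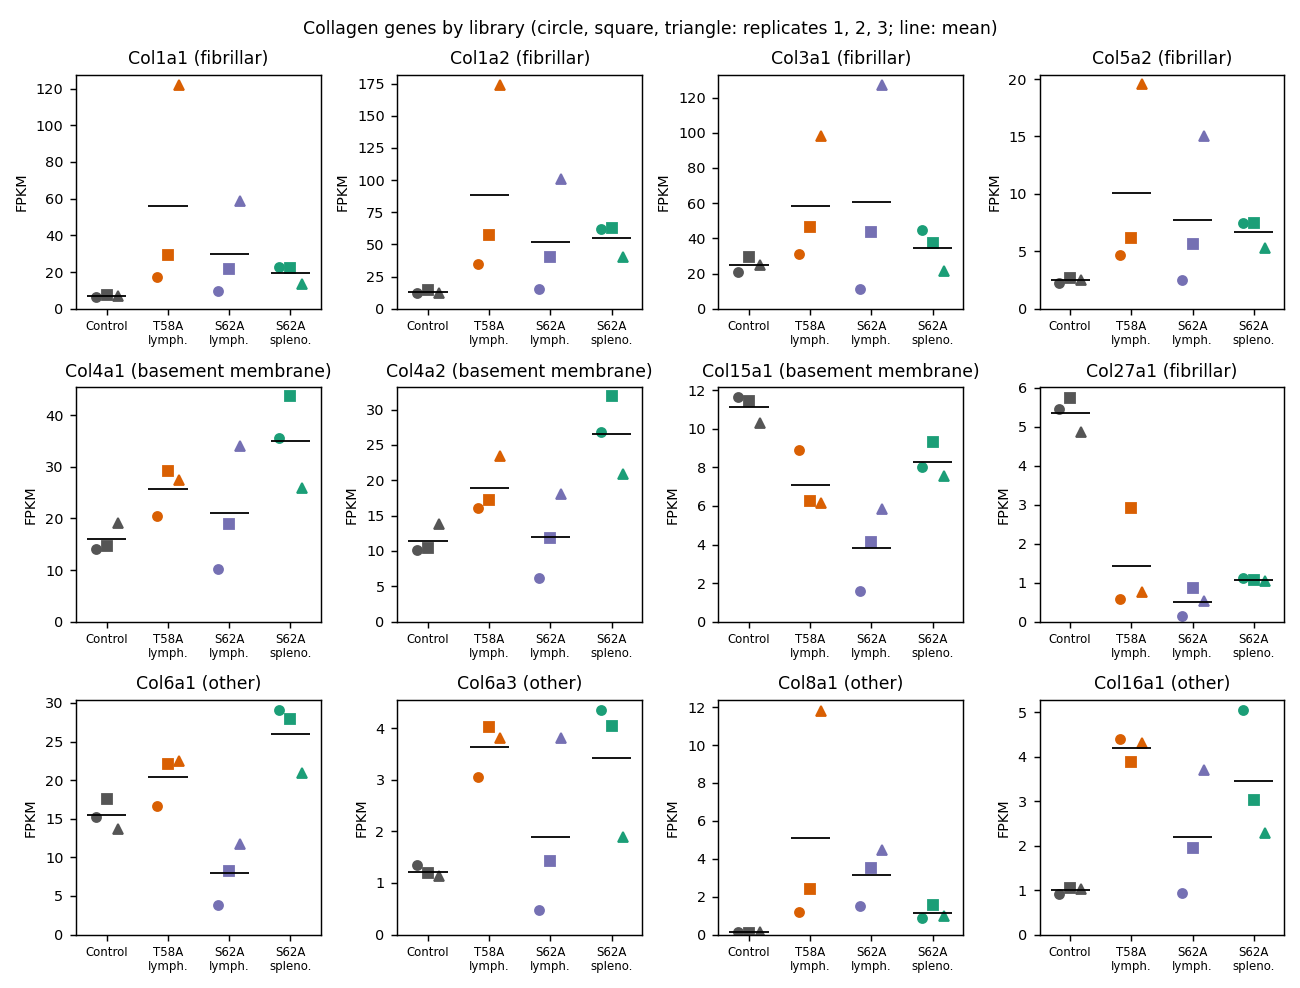
FPKM (vertical axes, from 0) of 12 collagen genes in each library by group; symbols mark replicates 1, 2 and 3, which pair nothing across groups, and lines are means of 3. The third T58A lymphoma reaches 173.9 FPKM for Col1a2, and Col27a1 is at 4.87 FPKM or more in controls and at 2.93 FPKM or less elsewhere.

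Col4a1 and Col4a2 encode the chains of the type IV collagen found in nearly all basement membranes. Col4a1 was at 14.1, 14.7 and 19.1 FPKM in the controls, 20.5, 29.2 and 27.5 FPKM in the T58A lymphomas, 10.1, 18.9 and 34.1 FPKM in the S62A lymphomas and 35.5, 43.7 and 25.9 FPKM in splenomegaly tissue. Col4a2 was at 10.1, 10.5 and 13.9 FPKM in the controls, 16.0, 17.2 and 23.4 FPKM in the T58A lymphomas, 6.19, 11.8 and 18.1 FPKM in the S62A lymphomas and 26.9, 31.9 and 20.8 FPKM in splenomegaly tissue. For both genes the T58A and splenomegaly libraries were above all controls and the S62A lymphomas overlapped them. In splenomegaly tissue Col4a1 rose by 1.23 ± 0.36 (adjusted p = 0.0141) and Col4a2 by 1.31 ± 0.32 (0.00597) on the log2 scale. In T58A lymphomas the values of 0.71 ± 0.35 (0.138) and 0.74 ± 0.32 (0.0903) did not pass. The Col4a1 call was lost without control 1, control 2 or splenomegaly library 2 (up to 0.0548), and the Col4a2 call held with each library left out. The other type IV chains were low: Col4a3, Col4a4, Col4a5 and Col4a6 had group means of 0.0292 to 0.996 FPKM, and none was called.

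Col15a1 and Col18a1 encode basement membrane collagens that carry sugar chains, and Col18a1 is the source of endostatin. Col15a1 was at 11.6, 11.4 and 10.3 FPKM in the controls, 8.90, 6.27 and 6.15 FPKM in the T58A lymphomas, 1.58, 4.12 and 5.83 FPKM in the S62A lymphomas and 8.04, 9.33 and 7.54 FPKM in splenomegaly tissue. All controls were above all other libraries. It fell in S62A lymphomas (-1.44 ± 0.36, adjusted p = 0.00786), also with each library left out, and was -0.62 ± 0.35 in T58A lymphomas without passing (0.191). Col18a1 was at 3.94, 4.13 and 4.58 FPKM in controls, 2.50, 2.50 and 6.68 FPKM in T58A lymphomas, 0.885, 2.27 and 2.35 FPKM in S62A lymphomas and 3.82, 3.24 and 2.42 FPKM in splenomegaly tissue. The S62A lymphomas and splenomegaly tissue lay below the controls, but the value of -1.11 ± 0.44 in S62A lymphomas was not called (0.0605).

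Type VI collagen forms beaded microfilaments close to cells, with Col6a1, Col6a2 and Col6a3 as its main chains. Col6a1 stood at 15.2, 17.5 and 13.7 FPKM in the controls, 16.6, 22.1 and 22.4 FPKM in the T58A lymphomas, 3.77, 8.26 and 11.7 FPKM in the S62A lymphomas and 29.1, 27.9 and 20.9 FPKM in splenomegaly tissue. Splenomegaly tissue was above controls and the S62A lymphomas were below them, without overlap. Col6a1 fell by -0.87 ± 0.32 in S62A lymphomas (adjusted p = 0.0444) and rose by 0.86 ± 0.31 in splenomegaly tissue (0.0416). Both calls were lost with any 1 control left out. The S62A call was also lost without S62A lymphoma 1 or 2, and the other without splenomegaly library 1 or 2 (up to 0.123). Col6a2 stood at 11, 12.6 and 9.61 FPKM in the controls, 15.5, 17.9 and 15.1 FPKM in the T58A lymphomas, 2.46, 5.77 and 10.5 FPKM in the S62A lymphomas and 18.9, 18.2 and 11 FPKM in splenomegaly tissue. Only the T58A lymphomas were separate from the controls, and Col6a2 was called in none of the 3 comparisons with them. Col6a3, the longest chain, was at 1.34, 1.19 and 1.13 FPKM in controls, 3.05, 4.02 and 3.82 FPKM in T58A lymphomas, 0.469, 1.43 and 3.81 FPKM in S62A lymphomas and 4.35, 4.04 and 1.89 FPKM in splenomegaly tissue. It rose by 1.60 ± 0.57 in T58A lymphomas (adjusted p = 0.0466), where all 3 libraries were above controls, and by 1.60 ± 0.57 in splenomegaly tissue (0.0366). The T58A call was lost with any 1 of the 6 libraries left out (up to 0.121), the splenomegaly call with any 1 control left out or without splenomegaly library 1 or 2 (up to 0.0988). Col6a6, a minor type VI chain, rose in S62A lymphomas by 1.70 ± 0.58 (0.0336), from 0.191 to 0.207 FPKM in controls to 0.362 to 0.910 FPKM; the call was lost with any 1 control left out or without S62A lymphoma 1 or 2 (up to 0.119).

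The largest fold change of a collagen gene against controls, among the 40 tested genes with reads in both groups, was that of Col8a1, a short-chain network collagen of vessel walls. Col8a1 was at 0.121, 0.106 and 0.145 FPKM in the controls, 1.17, 2.41 and 11.8 FPKM in the T58A lymphomas, 1.49, 3.49 and 4.48 FPKM in the S62A lymphomas and 0.892, 1.57 and 0.984 FPKM in splenomegaly tissue. Every other library was far above every control. The log2 fold change was 5.36 ± 0.85 in T58A lymphomas (adjusted p = 0.000773), 4.74 ± 0.83 in S62A lymphomas (0.00108) and 3.28 ± 0.80 in splenomegaly tissue (0.00576). These calls held with each library left out, and the T58A value was 3.86 without T58A lymphoma 3.

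Collagens that associate with fibrils through interrupted helices include types IX, XII, XIV, XVI, XIX and XX. Col16a1 was at 0.904, 1.05 and 1.03 FPKM in the controls, 4.40, 3.88 and 4.32 FPKM in the T58A lymphomas, 0.937, 1.94 and 3.69 FPKM in the S62A lymphomas and 5.06, 3.03 and 2.27 FPKM in splenomegaly tissue. T58A and splenomegaly libraries were all above the controls, and S62A lymphoma 1 was within their range. Col16a1 rose by 2.10 ± 0.47 in T58A lymphomas (adjusted p = 0.00529), 1.23 ± 0.46 in S62A lymphomas (0.0476) and 1.91 ± 0.46 in splenomegaly tissue (0.00572). The S62A call was lost with any 1 control left out and without S62A lymphoma 2 or 3 (up to 0.240), and the other calls held. Col12a1 was at 1.11, 1.36 and 1.26 FPKM in controls, 2.03, 2.38 and 15.6 FPKM in T58A lymphomas, 1.29, 1.51 and 2.17 FPKM in S62A lymphomas and 1.87, 1.49 and 1.75 FPKM in splenomegaly tissue. Col14a1 was at 1.16, 1.78 and 1.07 FPKM in controls, 4.08, 8.16 and 4.43 FPKM in T58A lymphomas, 1.42, 1.30 and 5.24 FPKM in S62A lymphomas and 5.41, 2.70 and 1.44 FPKM in splenomegaly tissue. Both rose in T58A lymphomas, by 2.43 ± 0.64 (adjusted p = 0.0131) and 2.09 ± 0.61 (0.0214), and T58A lymphoma 3 set the Col12a1 value, which was 0.86 without it. Col12a1 was lost without control 1 (0.0509), and Col14a1 without control 1, control 3 or T58A lymphoma 2 (up to 0.0759).

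Col20a1 was at 1.53, 1.77 and 2.12 FPKM in controls, 0.346, 0.800 and 0.187 FPKM in T58A lymphomas, 0.386, 0.591 and 0.0227 FPKM in S62A lymphomas and 0.810, 1.02 and 0.42 FPKM in splenomegaly tissue. All controls were highest, and the call was in S62A lymphomas (-2.34 ± 0.82, adjusted p = 0.0369), lost with any 1 control left out or without S62A lymphoma 1 (up to 0.0908). Col7a1, the gene of anchoring fibrils under epithelium, was at 1.19, 1.27 and 1.52 FPKM in controls, 0.636, 0.662 and 0.939 FPKM in T58A lymphomas, 0.882, 0.856 and 0.341 FPKM in S62A lymphomas and 0.449, 0.401 and 0.747 FPKM in splenomegaly tissue. It was lower than controls in all 9 libraries and called in splenomegaly tissue (-1.20 ± 0.42, adjusted p = 0.0343), lost with any 1 control left out or without splenomegaly library 1 or 2 (up to 0.108). Col9a1 and Col9a2, of the cartilage collagen type IX, had 77 and 72 reads in controls, 17 and 16 in T58A lymphomas and 0 in all S62A libraries. With a floor of 3 reads per group, they were at least 18.9-fold and 17.7-fold lower in S62A lymphomas and at least 18.0-fold and 16.9-fold lower in splenomegaly tissue than in controls. Col19a1 had 66 control reads, 84 reads over the T58A lymphomas, 8 over the S62A lymphomas and none (0) in splenomegaly tissue, which was at least 15.5-fold below controls. Col28a1, a collagen related to type VI, rose by 3.40 ± 0.76 in T58A lymphomas (adjusted p = 0.00533) and 2.41 ± 0.75 in splenomegaly tissue (0.0209), from 11 reads in controls to 105 and 37; the splenomegaly call was lost without control 1, control 2 or splenomegaly library 2 (up to 0.0840). Col9a1, Col9a2, Col19a1, Col24a1 and Col28a1 passed the filter on low counts through the groups where they are higher, since no library of the lower group reached its level. They make up 2 of the 10 genes that rose in T58A lymphomas, 2 of the 6 that fell in S62A lymphomas, and 2 of the 9 that rose and 3 of the 6 that fell in splenomegaly tissue. The remaining genes of the other classes were called in no comparison with controls and reached group means of at most 2.90 FPKM, apart from Col6a2.

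Without control 1 or control 3, the count of collagen genes higher in T58A lymphomas was 5 or 6 in place of 10, and in S62A lymphomas it was 1 in place of 6 with any 1 control left out and 2 without S62A lymphoma 3. In splenomegaly tissue it was 3, 4 or 5 in place of 9 without control 1, 2 or 3 and 4 without splenomegaly library 2. The shares of all genes called with a library left out, here and below, were not determined, so these counts stand without a comparison. The 1 gene lower in T58A lymphomas (Col27a1) was lost with any 1 control left out or without T58A lymphoma 1 or 3; without T58A lymphoma 3 the 1 gene lower was Col22a1, and without T58A lymphoma 2 there were 3. Against control 3 alone, the control with the T58A title code, the log2 fold changes of the 11 collagen genes called in T58A lymphomas kept their direction. That fit leaves 1 control and reuses libraries by which these genes were called, so the kept direction is not separate support.

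S62A and T58A lymphomas, the same tissue with different MYC mutants, were then set against each other. No collagen gene was called by edgeR in either direction, against 0.859% of all genes higher and 2.29% lower. At an unadjusted p under 0.05, 0 were higher and 14 lower in S62A lymphomas. DESeq2 called 0 higher and 3 lower, namely Col6a1, Col6a2 and Col9a1. The shares of all genes at an unadjusted p under 0.05 or by DESeq2 were not determined, so these counts stand without a comparison. The median log2 fold change of the 40 genes was -0.93, beside -0.01 over all genes, and 35 of 40 values were below 0. Col6a1 gave the smallest adjusted p of the 40: all S62A lymphomas (3.77 to 11.7 FPKM) were below all T58A lymphomas (16.6 to 22.4 FPKM), at -1.29 ± 0.32 (0.0524). Col6a2 was likewise separate, at 2.46 to 10.5 against 15.1 to 17.9 FPKM (-1.31 ± 0.40, adjusted p = 0.0907). Both passed without S62A lymphoma 3 (0.0288 and 0.0307), and the count lower was 2 then, 3 without T58A lymphoma 1 and 1 without S62A lymphoma 2. Over all genes, 27.2% of the calls in this comparison were higher, and 15.9% when only library size was used for scaling.

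Splenomegaly tissue and S62A lymphomas share the S62A mutant but differ by label in endogenous MYC and in B cells. Col6a1, Col6a2, Col6a4, Col4a2 and Col15a1 were higher in splenomegaly tissue and Col11a2 was lower, while the type VI chains Col6a3 (0.86), Col6a5 (0.41) and Col6a6 (-1.34) did not pass the test. In all, 5 collagen genes rose and 1 fell, 12.5% and 2.5% of 40, against 25.6% and 28.6% of all genes, with medians of 0.03 and -0.07. Col6a1 was separate between the groups, at 20.9 to 29.1 against 3.77 to 11.7 FPKM, a log2 difference of 1.72 ± 0.32 (adjusted p = 0.00104). Col6a2 gave 1.38 ± 0.40 (0.0131) and Col4a2 1.15 ± 0.32 (0.0104). Col6a4, a minor chain, was at 1.10, 3.49 and 1.60 FPKM in splenomegaly tissue and 0.152, 0.0467 and 0.0322 FPKM in the S62A lymphomas (4.69 ± 1.35, adjusted p = 0.0123), beside 0.590, 0.793 and 0.317 FPKM in controls and 0.212, 1.54 and 0 FPKM in T58A lymphomas. Col15a1 was 1.12 ± 0.36 higher (0.0204), lost without splenomegaly library 2 (0.0558), and Col11a2 was lower by -1.60 ± 0.44 (0.00947). The other calls held with each library left out; 9 genes were higher without S62A lymphoma 3, and 2 or 3 were lower without S62A lymphoma 1, 2 or 3 or splenomegaly library 1.

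Chains that share a trimer were compared by the ratio of their FPKM. Col1a1 to Col1a2 was 0.528 to 0.543 in controls, 0.511, 0.513 and 0.701 in T58A lymphomas, 0.545 to 0.640 in S62A lymphomas and 0.336, 0.350 and 0.363 in splenomegaly tissue. The ratio was lower in splenomegaly tissue than in all 9 other libraries. Col5a1 to Col5a2 was 0.726 to 0.787 in controls, 0.360 to 0.540 in T58A lymphomas, 0.277 to 0.439 in S62A lymphomas and 0.388 to 0.463 in splenomegaly tissue, and here the controls stood apart. Col4a1 to Col4a2 was 1.38 to 1.40 in controls and 1.18 to 1.70 in T58A lymphomas. It was 1.60 to 1.89 in S62A lymphomas, above controls, and 1.24 to 1.37 in splenomegaly tissue, just below them. Col6a1 to Col6a2 was 1.38 to 1.42 in controls, 1.07 to 1.48 in T58A lymphomas and 1.12 to 1.54 in S62A lymphomas. In splenomegaly tissue it was 1.54 to 1.89, above controls. Col3a1 to Col1a2, 2 different collagens chosen after their values were seen, was 1.74 to 2.01 in controls, 0.566 to 0.898 in T58A lymphomas, 0.751 to 1.26 in S62A lymphomas and 0.535 to 0.718 in splenomegaly tissue. Col3a1 was above Col1a2 in the controls and S62A lymphomas 2 and 3, and below it in the other 7 libraries. With 3 libraries a group an exact two-sided permutation test cannot go below p = 0.1, so these ratios are given without a test.

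**Figure D4:**
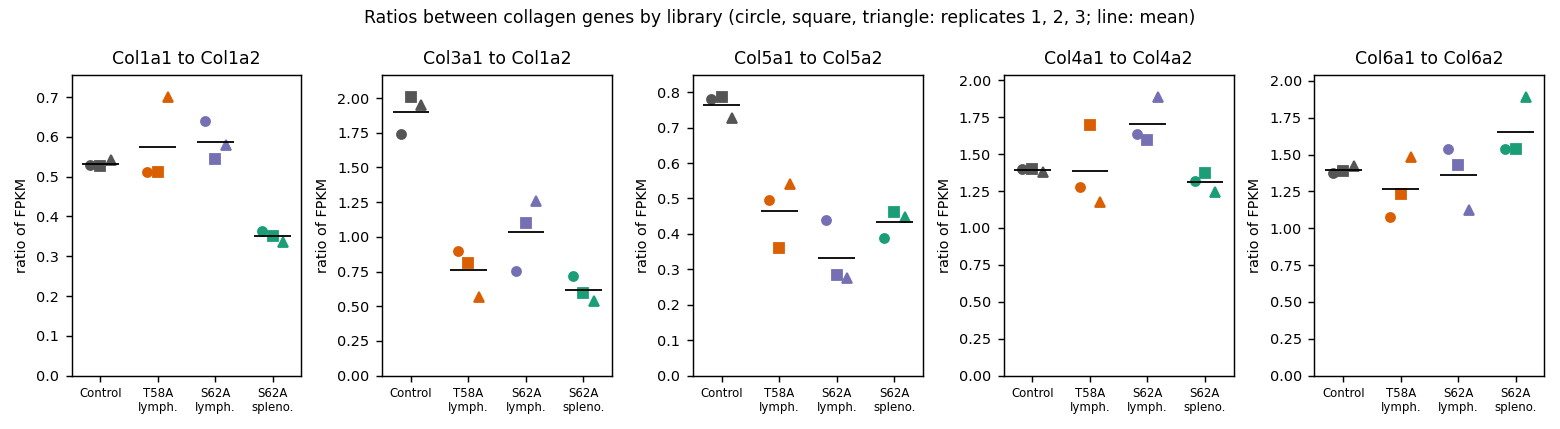
Ratio of FPKM (vertical axes, from 0) between 2 collagen genes in each library by group; symbols mark replicates and lines are means of 3. Col1a1 to Col1a2 is lowest in splenomegaly tissue (0.336 to 0.363), and Col3a1 to Col1a2 and Col5a1 to Col5a2 are highest in controls (1.74 to 2.01 and 0.726 to 0.787).

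Genes that make, assemble, break down or bind collagen were followed in 5 lists, whose shares stand beside those of all genes tested, 18.8% higher and 17.4% lower in T58A lymphomas, 21.9% higher and 22.2% lower in S62A lymphomas, and for splenomegaly tissue 22.9% higher and 26.3% lower. For S62A against T58A lymphomas the shares of all genes were 0.859% higher and 2.29% lower. For splenomegaly tissue against S62A lymphomas they were 25.6% higher and 28.6% lower. Of 19 tested genes of collagen synthesis and modification, 7 rose (36.8%) and 1 fell (5.26%) in T58A lymphomas, 7 rose (36.8%) and 2 fell (10.5%) in S62A lymphomas and 12 rose (63.2%) and 1 fell (5.26%) in splenomegaly tissue. The median log2 fold changes were 0.58, 0.46 and 1.11, beside 0.01, 0.00 and -0.08 over all genes. Plod2, a lysyl hydroxylase that sets the kind of cross-link, was at 3.86 to 5.16 FPKM in controls, 24.3 to 45.6 FPKM in T58A lymphomas and 31.5 to 45.7 FPKM in S62A lymphomas, but at 4.96 to 7.41 FPKM in splenomegaly tissue. It rose by 2.85 ± 0.27 (adjusted p = 3.54e-05) and 3.05 ± 0.27 (1.68e-05) in the lymphomas and was -2.51 ± 0.27 lower in splenomegaly tissue than in S62A lymphomas (2.94e-05). The chaperones Ppib (1.63 ± 0.14, adjusted p = 7.1e-06) and P4hb (1.34 ± 0.11, 7.1e-06) were higher in splenomegaly tissue than in controls; in the lymphomas Ppib rose by 0.39 in T58A (0.0392) and 0.46 in S62A (0.0173), and P4hb by 0.40 in S62A (0.0139). P4ha3, a prolyl hydroxylase subunit, fell in all 3 comparisons, by -2.30 ± 0.65, -4.57 ± 0.74 and -2.73 ± 0.67 (0.0172, 0.000679 and 0.00591). Against T58A lymphomas none of the 19 was called in S62A lymphomas by edgeR. Splenomegaly tissue had 11 (57.9%) higher and 2 (10.5%) lower than S62A lymphomas.

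Of 18 genes of fibril assembly and cross-linking, 11 rose (61.1%) in T58A lymphomas (median 1.48), 6 rose (33.3%) and 1 fell (5.56%) in S62A lymphomas (0.81) and 8 rose (44.4%) in splenomegaly tissue (1.04). Bgn (biglycan, a proteoglycan on fibrils) was at 17.7 to 19.7 FPKM in controls and at 118.2, 212.1 and 214.0 FPKM in T58A lymphomas, 46.6, 69.6 and 103.3 FPKM in S62A lymphomas and 289.9, 269.0 and 187.1 FPKM in splenomegaly tissue. Bgn rose by 3.3 ± 0.32 in T58A lymphomas (adjusted p = 3.64e-05) and was the 1 gene of the list that differed between the lymphomas, at -1.24 ± 0.29 in S62A (0.0465). Adamts14, which removes the amino end of procollagen, was at 1.52 to 1.74 FPKM in controls, 20.5 to 36.7 FPKM in T58A lymphomas, 9.50 to 29.7 FPKM in S62A lymphomas and 1.67 to 2.12 FPKM in splenomegaly tissue. It rose by 4.07 ± 0.39 (adjusted p = 3.63e-05) and 3.71 ± 0.38 (4.02e-05) in the lymphomas and was -3.33 ± 0.38 in splenomegaly tissue against S62A lymphomas (4.41e-05). In that comparison 6 of the 18 (33.3%) were higher and 2 (11.1%) lower.

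Of 16 other basement membrane genes, 3 rose (18.8%) and 2 fell (12.5%) in T58A lymphomas (median 0.27), 2 rose (12.5%) and 5 fell (31.2%) in S62A lymphomas (-0.50) and 8 rose (50%) and 4 fell (25%) in splenomegaly tissue (0.83). In T58A lymphomas these shares were at or below those of all genes. Nidogen (Nid1), which links laminin to type IV collagen, rose in all 3, by 1.79 ± 0.28, 0.90 ± 0.27 and 2.28 ± 0.28 (adjusted p = 0.000667, 0.0195 and 8.28e-05). Lama3 and Lamb3, laminin chains of epithelial basement membranes, fell in all 3, Lamb3 by -1.96 ± 0.46 in T58A lymphomas (adjusted p = 0.00698), -3.67 ± 0.50 in S62A lymphomas (0.000225) and -4.04 ± 0.51 in splenomegaly tissue (9.66e-05). S62A lymphomas had 5 of the 16 (31.2%) lower than T58A lymphomas, among them Lama1 (-5.02 ± 0.98, adjusted p = 0.0278). Splenomegaly tissue had 11 of 16 (68.8%) higher than S62A lymphomas, among them Hspg2 (perlecan, 1.46 ± 0.21, 0.000169).

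Of 15 collagen-degrading proteases and inhibitors, 6 rose (40%) in T58A lymphomas (median 0.44), 4 rose (26.7%) and 3 fell (20%) in S62A lymphomas (-0.28) and 7 rose (46.7%) and 1 fell (6.67%) in splenomegaly tissue (0.91). In S62A lymphomas these shares were near those of all genes. Mrc2, a receptor that takes up collagen for breakdown, was at 0.802 to 0.830 FPKM in controls and 3.36 to 3.79 FPKM in T58A lymphomas (2.15 ± 0.39, adjusted p = 0.00182). Ctsk (cathepsin K) rose by 2.43 ± 0.47 there (0.00241), and in S62A lymphomas Mmp14 rose by 1.60 ± 0.37 (0.00555) while Mmp2 fell (-1.66 ± 0.44, 0.0114). In S62A against T58A lymphomas 1 of the 15 (6.67%) was lower, the inhibitor Timp2 (-0.73 ± 0.14, adjusted p = 0.0292). Splenomegaly tissue had 7 (46.7%) higher and 2 (13.3%) lower than S62A lymphomas. Of 8 collagen receptors, 2 rose and 2 fell (25% each) in T58A lymphomas (median 0.91), 1 rose (12.5%) and 2 fell (25%) in S62A lymphomas (-0.05) and 5 rose (62.5%) and 2 fell (25%) in splenomegaly tissue (1.71). With 8 genes, the shares in both lymphoma groups rest on 1 or 2 genes each. Itga2, the collagen-binding integrin chain, was at 0.0862 FPKM or less in controls and at 1.86, 1.20 and 6.90 FPKM in S62A lymphomas (6.13 ± 0.91, adjusted p = 0.000409). Ddr1, a collagen-activated kinase of epithelium, fell in all 3, by -1.12 ± 0.35, -2.86 ± 0.37 and -1.73 ± 0.36 (0.0268, 0.000174 and 0.0022), and both Ddr1 and Ddr2 were lower in S62A than in T58A lymphomas. Splenomegaly tissue had 5 of 8 receptors (62.5%) higher and 1 (12.5%) lower than S62A lymphomas, with Ddr2 at 3.18 ± 0.38 (5.99e-05).

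Markers of cell types that make collagen differed between these groups, but not all in 1 direction. Over all genes tested, 18.8% rose and 17.4% fell in T58A lymphomas, and 21.9% rose and 22.2% fell in S62A lymphomas. In splenomegaly tissue 22.9% rose and 26.3% fell. S62A lymphomas had 2.29% lower than T58A lymphomas, and splenomegaly tissue had 25.6% higher than S62A lymphomas. The marker counts below stand beside these shares. The 9 fibroblast markers summed to 72 to 95 FPKM in controls, 170.4 to 312.0 FPKM in T58A lymphomas, 112.5 to 257.5 FPKM in S62A lymphomas and 233.5 to 448.1 FPKM in splenomegaly tissue. Against controls, 4 were higher and 1 lower in T58A lymphomas, and 3 were higher in each of the other groups. S62A lymphoma 1, with the lowest collagen sum, had a fibroblast sum of 196.6 FPKM, against 112.5 FPKM in S62A lymphoma 2. In S62A lymphoma 1, Twist2 (67.8 FPKM) and Fbln1 (55.9 FPKM) were high, while Lum (1.36 FPKM) and Dpt (1.33 FPKM) were below all controls. In S62A lymphoma 2, Twist2 and Fbln1 made up 15.4 and 43.7 FPKM of the sum of 112.5 FPKM. Dpt was below all controls in S62A lymphomas 2 and 3 too, at 3.68 and 6.24 against 8.41 to 10.8 FPKM, without being called lower. Fbln1 was at 29.5 to 95.8 FPKM in the lymphomas but at 1.65 to 2.89 FPKM in splenomegaly tissue. The 8 endothelial markers summed to 78.4 to 93.2 FPKM in controls, 106.2 to 146.6 FPKM in T58A lymphomas, 68.2 to 98.2 FPKM in S62A lymphomas and 192.7 to 331.1 FPKM in splenomegaly tissue. In splenomegaly tissue 8 of 8 were higher than in controls and than in S62A lymphomas. Against controls, 2 (25%) were higher in T58A lymphomas and 1 (12.5%) was lower in S62A lymphomas. The 7 mural cell markers summed to 77.7 to 85.2 FPKM in controls, 58.5 to 127.5 FPKM in T58A lymphomas, 23.9 to 56.5 FPKM in S62A lymphomas and 90.9 to 113.4 FPKM in splenomegaly tissue. Of them 2 (28.6%) fell in T58A and 2 (28.6%) in S62A lymphomas, and 3 (42.9%) were lower in S62A than in T58A lymphomas. In splenomegaly tissue 2 rose and 2 fell (28.6% each), near the shares of all genes. With 7 genes, the shares against controls rest on 2 genes each. In S62A lymphomas the mural sum was below all controls. Not every mural marker was low there: Acta2 was at 14.0 and 16.7 FPKM in S62A lymphomas 2 and 3, against 11.2 to 14.3 FPKM in controls.

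The 8 thymic epithelium markers summed to 1711 to 1906 FPKM in controls and to at most 117.4 FPKM elsewhere. Of them 5 (62.5%), 8 (100%) and 7 (87.5%) were lower in T58A lymphomas, S62A lymphomas and splenomegaly tissue. Genes of several other lists also fell in all 3 comparisons, among them Col27a1, Lamb3, Ddr1, P4ha3, Itga10 and the mural markers Notch3 and Myh11. The Col27a1 call in T58A lymphomas was lost in 5 of 6 fits with a library left out. Some epithelial markers did not fall. Krt14 in T58A lymphomas (7.03 to 34.0 FPKM) overlapped controls (17.9 to 26.5 FPKM), and so did Epcam in splenomegaly tissue (19.3 to 26.9 against 19.4 to 25.9 FPKM). Of the 7 cartilage markers, 5 could be tested, and 1 (20%), 2 (40%) and 3 (60%) were lower. Acan, Matn3 and Lect1 were at 0 reads in splenomegaly tissue and Hapln1 in S62A lymphomas. Col9a1 and Col9a2 had 0 reads in both groups. Matn3 and Hapln1 were near 0 in controls too, at means of 0.0205 and 0.0830 FPKM. Acan was at 1.18, 6.03 and 0.117 FPKM in S62A lymphomas, against 0.566 to 0.876 FPKM in controls. Matn1 in splenomegaly tissue (0, 0.246 and 0.594 FPKM) overlapped controls (0.447 to 0.573 FPKM). The 7 cartilage markers summed to 1.18 to 7.78 FPKM in S62A lymphomas and 1.04 to 1.79 FPKM in splenomegaly tissue. The 5 adipocyte markers summed to 138.4 and 173.2 FPKM in controls 1 and 2 but 1539 FPKM in control 3, and to 155.7 to 587.5 FPKM elsewhere, with 3 lower in S62A lymphomas. The 6 macrophage markers summed to 293.8 to 355.6 FPKM in controls and 523.2 to 4163 FPKM elsewhere, with 4, 5 and 6 higher. Of the 7 T cell markers, 4, 5 and 6 were lower, and of the 6 B cell markers 4 were higher in T58A lymphomas, 2 lower in S62A lymphomas and 6 higher in splenomegaly tissue. The B cell sum was 164.3, 240.8 and 17.4 FPKM in T58A lymphomas 1, 2 and 3. Controls had 51.1 to 54.3 FPKM, so T58A lymphoma 3 lay below them. The part of these cell types in the collagen results was not tested.

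**Figure D5:**
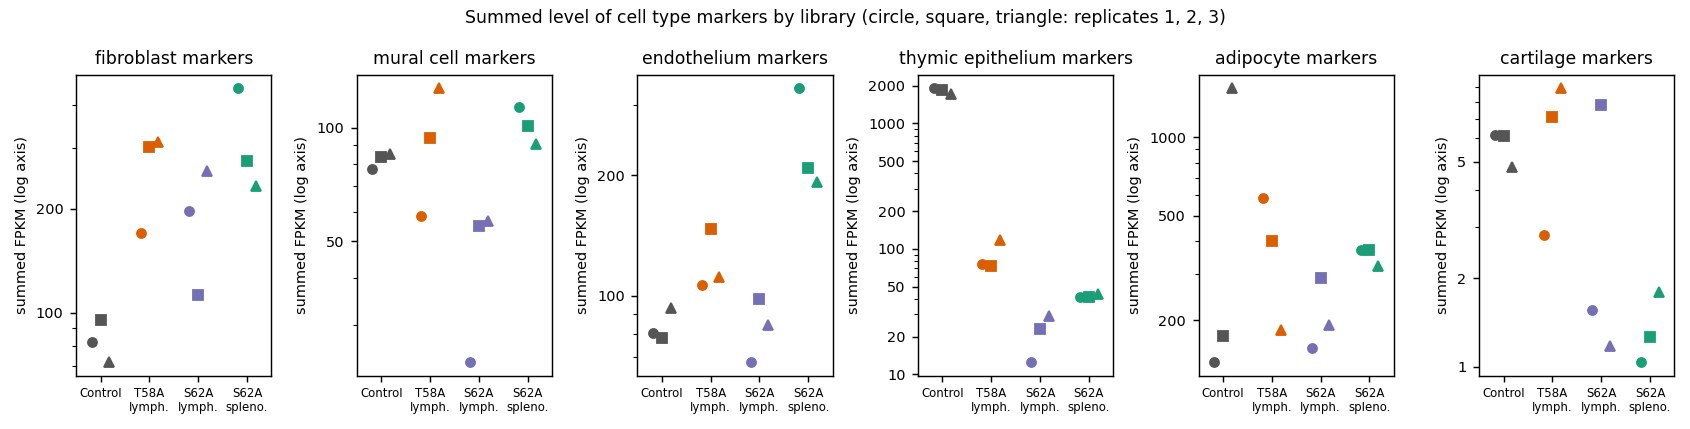
Summed FPKM (log axes) of markers of 6 cell types in each library by group; symbols mark replicates. Fibroblast sums are above the control range (72 to 95 FPKM) in all other libraries, though not every fibroblast marker is (Dpt is below all controls in S62A lymphomas). Thymic epithelium sums are below 1711 FPKM outside controls, and control 3 stands apart in adipocyte markers at 1539 FPKM.

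Promoter windows from 250 bases before to 50 after the start were found for 35 of the 44 genes in RefSeq (build GRCm38.p6). They are shown 5′ to 3′ for the genes called in all 3 comparisons with controls, with CCAAT, a box bound by a general transcription factor, in capitals on either strand. The windows are chr6:4505368-4505667 (+) for Col1a2, chr16:57754688-57754987 (-) for Col8a1, chr4:130047590-130047889 (+) for Col16a1 and chr4:63215162-63215461 (+) for Col27a1.
Col1a2: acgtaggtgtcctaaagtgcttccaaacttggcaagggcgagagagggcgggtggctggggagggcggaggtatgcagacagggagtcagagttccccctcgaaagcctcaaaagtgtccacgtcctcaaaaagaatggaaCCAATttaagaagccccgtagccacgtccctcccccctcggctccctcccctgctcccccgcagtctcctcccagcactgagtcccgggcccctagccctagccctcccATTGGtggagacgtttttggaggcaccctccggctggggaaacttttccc
Col8a1: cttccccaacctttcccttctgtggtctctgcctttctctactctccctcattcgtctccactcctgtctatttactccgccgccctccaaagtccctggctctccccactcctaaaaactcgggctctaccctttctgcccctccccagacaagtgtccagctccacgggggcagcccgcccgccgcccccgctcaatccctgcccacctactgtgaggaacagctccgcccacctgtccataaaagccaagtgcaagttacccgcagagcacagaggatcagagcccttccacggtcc
Col16a1: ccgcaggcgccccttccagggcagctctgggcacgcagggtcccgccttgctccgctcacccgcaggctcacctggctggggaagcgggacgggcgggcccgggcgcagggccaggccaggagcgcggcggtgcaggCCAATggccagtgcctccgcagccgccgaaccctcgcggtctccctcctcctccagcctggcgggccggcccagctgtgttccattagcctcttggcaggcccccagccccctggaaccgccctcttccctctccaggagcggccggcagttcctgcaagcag
Col27a1: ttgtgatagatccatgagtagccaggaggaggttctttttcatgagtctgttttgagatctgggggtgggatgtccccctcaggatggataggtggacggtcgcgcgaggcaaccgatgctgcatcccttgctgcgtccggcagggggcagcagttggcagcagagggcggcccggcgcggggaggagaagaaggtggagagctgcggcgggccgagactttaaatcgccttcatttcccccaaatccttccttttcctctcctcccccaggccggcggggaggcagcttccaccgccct

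Col1a2 and Col16a1 hold the box, and Col8a1 and Col27a1 do not. CCAAT was in 12 of the 35 windows (34.3%), against 37.9% of 27025 windows of all genes, and TATAAA in 5 (14.3%, against 14.2%). CACGTG, the letters of the E-box that MYC is known to bind, was in 0 of 35, against 7.24% of all windows. CCGCCC, the core of a GC box, was in 22 (62.9%), against 35.9%. All 4 motifs were read on both strands; these are letter matches and not sites.

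Col4a1 and Col4a2 lie head to head on chromosome 8, with transcripts that overlap by 22 bases in the authors' mm9 positions. The Col4a2 window at chr8:11312555-11312854 (+) shares 78 bases, in capitals, with the Col4a1 window at chr8:11312777-11313076 (-) in GRCm38.p6.
Col4a2: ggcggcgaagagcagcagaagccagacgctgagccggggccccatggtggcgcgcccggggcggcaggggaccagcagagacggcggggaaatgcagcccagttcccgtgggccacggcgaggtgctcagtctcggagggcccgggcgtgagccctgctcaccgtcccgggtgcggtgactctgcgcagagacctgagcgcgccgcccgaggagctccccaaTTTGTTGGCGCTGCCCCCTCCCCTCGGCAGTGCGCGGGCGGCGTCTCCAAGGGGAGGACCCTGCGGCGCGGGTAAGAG

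Both were called in splenomegaly tissue against controls; against S62A lymphomas Col4a2 was called there and Col4a1, at 0.74 ± 0.35 (adjusted p = 0.0949), was not. Col4a3 and Col4a4, 71 bases apart, and Col4a5 and Col4a6, 1342 bases apart, are also head to head. Col3a1 and Col5a2 lie tail to tail 24624 bases apart on chromosome 1, where only Col5a2 was called, and Col9a1 and Col19a1 lie tail to tail 4944 bases apart. Col6a1 and Col6a2 follow each other on chromosome 10, and Col6a4, Col6a5 and Col6a6 on chromosome 9. Col9a3 and Col10a1 overlap genes on the opposite strand, and neither was called; Col27a1 and Col7a1 contain microRNA genes. Whether counting used strand is not stated.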

How the data were processed

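Per the labels' protocols, poly(A) RNA was extracted with Trizol and sequenced from a directional kit on an Illumina HiSeq instrument. The authors deposited whole-number read counts and FPKM per RefSeq transcript for each library; per the submitters' processing notes, the build was mm9 and tools included Bowtie 1.0.0, bcl2fastq 2.20.0.422 and, without a version, DESeq2. The sources used here do not give the counting tool, strand setting or exact FPKM denominators. The transcript with the most reads was kept per symbol; 13 collagen genes had several. Counts were tested with edgeR 4.0.16 (quasi-likelihood, TMM factors, filterByExpr with a minimum count of 10, group only, all 12 libraries sharing 1 spread) in R 4.3.3, with Benjamini-Hochberg adjustment over 15606 genes and a threshold of 0.05; it was checked on simulated data. Standard errors are the absolute log2 fold change over the square root of F. Genes with 0 reads in a group were set at a floor of 3 reads per group; intervals and floors cover counting error only. Levels are FPKM as deposited, without a test. DESeq2 1.42.0, other scalings, filters and transcripts, 2-group fits and leaving out libraries were alternatives. The collagen genes, partner lists (synthesis and modification, fibril assembly, other basement membrane genes, proteases and inhibitors, receptors) and marker lists (fibroblast, mural, endothelial, thymic epithelial, adipocyte, cartilage, macrophage, T cell, B cell) were chosen with earlier results of these data known. Values in every library are given for genes with a group mean of at least 5 FPKM, or called and at least 1 FPKM; of partner lists, at most 2 genes per direction and comparison with the smallest adjusted p.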

Additional observations from a re-analysis of the deposited data

Results flagged for a closer look

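For 6 collagen genes the difference from controls was unlike in the 2 kinds of S62A tissue: the direct contrast of splenomegaly tissue with S62A lymphomas, tested in edgeR over all genes, had an adjusted p under 0.05. Of the 40 tested, 12.5% were higher and 2.5% lower, against 25.6% and 28.6% of all genes, so calls were less frequent among collagen genes. The log2 differences were 1.72 for Col6a1, 1.38 for Col6a2, 4.69 for Col6a4, 1.15 for Col4a2, 1.12 for Col15a1 and -1.60 for Col11a2. In each case all 3 splenomegaly libraries lay on 1 side of all 3 lymphomas, which follows largely from choosing the genes by this contrast and adds no support. Some genes that were not called, such as Col18a1, Col27a1 and Col4a3, were separate too. The share of all genes without overlap was not determined. By label the 2 kinds differ in endogenous MYC and in B cells, and the sums of endothelial and mural markers differ too; their part was not tested.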

How the results depend on the processing

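With control 3 as the only control, the log2 fold changes of the 11 collagen genes called in T58A lymphomas kept their direction. The same libraries had been used to call them, so this is not separate support. The count lower in T58A lymphomas was 2 by DESeq2 and 4 in a fit of the 2 groups alone. In splenomegaly tissue against controls the 2-group fit called 14 higher and 11 lower, keeping 7 of 9 and 6 of 6. In S62A against T58A lymphomas, 1 gene was lower with library size only and 3 by DESeq2, in place of 0. In splenomegaly tissue against S62A lymphomas, 3 were lower by DESeq2 and 2 in the 2-group fit, in place of 1. Causes were not tested, though the 2-group fits rest on fewer libraries. The shares of all genes called under these settings or with a library left out were not determined, so the counts here stand without a comparison. Leaving out 1 library at a time, which leaves a group of 2 with pooled spread, gave 5 to 9 higher and 0 to 3 lower in T58A lymphomas, 1 to 8 higher and 4 to 8 lower in S62A lymphomas, 3 to 10 higher and 5 to 7 lower in splenomegaly tissue, 0 higher and 0 to 3 lower in S62A against T58A lymphomas, and 4 to 9 higher and 1 to 3 lower in splenomegaly tissue against S62A lymphomas. Of the log2 fold changes printed for collagen genes, 83 of the values with a library left out missed the threshold that the full fit passed, 10 newly passed and 285 stayed on their side; under other settings 13, 17 and 342. None of these changed direction. Library size only moved the median of all genes in splenomegaly tissue against controls from -0.08 to -0.19. The log2 ratios of each class sum to the control sum moved by less than the spread between libraries when CPM replaced FPKM; those of S62A lymphomas went from -0.15 to 0.00 for basement membrane genes and from -0.34 to 0.03 for other classes. No paired analysis was possible because the replicate numbers follow the order of deposit. Genes with few reads, such as Col24a1, Col9a1 and Col19a1, are limited by depth.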
